A study of Mus musculus with 20 samples.

Results

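The collagen genes are the 44 mouse genes whose symbol is Col, a number, a and a number, out of 55260 annotated genes. They were taken by name alone, with no measured value. Their levels were followed through 20 RNA libraries of leukocytes sorted from MC38-OVA tumours, a mouse colon carcinoma line made to express ovalbumin, grown in C57BL/6 mice with 1 tumour per mouse. The 4 sorted populations were CD8 T cells and the myeloid fractions CD11c+CD11b+, CD11c+CD11b- and CD11c-CD11b+, where CD11c and CD11b are surface integrins of dendritic cells, macrophages, monocytes and granulocytes. All 4 were taken from each of 5 treatment pools: untreated (sham irradiation), RT (focal radiotherapy of 8 Gy on day 12), RT+anti-SIRPa (an antibody against SIRPa, the myeloid receptor for CD47, 400 µg on days 12, 14 and 16), RT+anti-PD-1 (an antibody against the T cell receptor PD-1, 250 µg on days 12 and 15), and RT+both (RT and both antibodies). Tumours were harvested on day 17, and the leukocytes of 10 tumours were combined before sorting. Each population of a pool is thus 1 library, and the 4 libraries of a pool share their mice. A pool and its treatment cannot be told apart, and the p-values for pools below measure how evenly a difference held over the 4 populations, not the spread between mice.

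Collagens are triple helices of 3 alpha chains, each the product of its own gene. Fibrillar collagens (types I, III, V, XI and others) form the fibres of connective tissue, type IV collagen forms the sheet of basement membranes, and type VI forms beaded filaments around cells. Fibroblasts and related mesenchymal cells are the main producers in tumours, and leukocytes are not usually counted among them. The question here was whether collagen RNA in the sorted leukocytes followed the pool that a library came from or the population that was sorted.

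Libraries held 21.5 to 35.7 M estimated counts (M, 1e6 counts). Levels are given as CPM, counts per M of the TMM-scaled library size. Collagen genes took 0.425 to 1.28% of the counts in the 4 untreated libraries and 0.18 to 0.377% after RT. They took 0.276 to 0.658% after RT+anti-SIRPa, 0.084 to 0.26% after RT+anti-PD-1 and 0.118 to 0.274% after RT+both. One library stood apart from its label. The 7 CD8 T cell markers (Cd3e, Cd8a and others) summed to 175.2 CPM in the library labelled untreated CD8 T and to 2421 to 3825 CPM in the other CD8 T libraries, while its 7 macrophage markers summed to 8935 CPM against 565.4 to 1282 CPM. Counts of collagen genes called are therefore also given without that library where they rest on it, and those of other gene lists are not.

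Of the 44 collagen genes, 34 passed the filter on low counts and were tested. The other 10 had at most 0.573 CPM in a library (Col2a1, Col4a3, Col4a6, Col9a1, Col9a2, Col13a1, Col22a1, Col25a1, Col26a1 and Col28a1). In all, 26 members reached 5 CPM in at least 1 library and 13 stayed below 1 CPM in each. The levels of the leading members and their place in the genome (GRCm38, GENCODE M21) were as follows. Col3a1, the single chain of fibrillar type III collagen, is at chr1:45311538-45349706 and had the highest mean level, 247.1 CPM per kb of transcript. The type VI chains Col6a1 (chr10:76708792-76726168) and Col6a2 (chr10:76595762-76623630) had 83.9 and 61.2 CPM per kb, and the type IV chains Col4a1 (chr8:11198423-11312826) and Col4a2 (chr8:11312805-11449287) had 43.9 and 23.4. Col1a1 (chr11:94936224-94953042) and Col1a2 (chr6:4504814-4541544), the chains of type I collagen, had 31.3 and 14.6 CPM per kb.

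Upstream sequence is shown for 4 members that stand for the patterns described below: Col3a1 and Col6a1 for the shared order of the pools, Col1a2 as the abundant member that departed from it, and Col8a2 as a member tied to 1 population. The sequences are the parts of RefSeq's 250 bases before the start site (GRCm38.p6) that no GENCODE exon covers. They run 5′ to 3′ on the strand of the gene. They are from chr1:45311288-45311537 (plus strand), chr10:76726169-76726294 (minus), chr6:4505370-4505492 (plus) and chr4:126286544-126286792 (plus). Capitals mark a CCAAT box (CCAAT), a GC box (GGGCGG) or a TATA box (TATAAA) on either strand, and neighbouring GC boxes can overlap.
Col3a1: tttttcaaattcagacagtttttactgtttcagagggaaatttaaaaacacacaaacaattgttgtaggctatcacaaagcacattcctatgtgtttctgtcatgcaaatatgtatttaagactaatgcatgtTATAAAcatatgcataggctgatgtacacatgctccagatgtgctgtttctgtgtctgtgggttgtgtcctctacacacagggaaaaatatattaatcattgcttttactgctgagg
Col6a1: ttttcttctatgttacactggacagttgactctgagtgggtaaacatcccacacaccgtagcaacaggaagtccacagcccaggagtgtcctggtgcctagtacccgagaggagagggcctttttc
Col1a2: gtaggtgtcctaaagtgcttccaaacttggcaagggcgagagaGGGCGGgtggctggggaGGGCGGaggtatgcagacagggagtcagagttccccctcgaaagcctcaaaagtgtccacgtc
Col8a2: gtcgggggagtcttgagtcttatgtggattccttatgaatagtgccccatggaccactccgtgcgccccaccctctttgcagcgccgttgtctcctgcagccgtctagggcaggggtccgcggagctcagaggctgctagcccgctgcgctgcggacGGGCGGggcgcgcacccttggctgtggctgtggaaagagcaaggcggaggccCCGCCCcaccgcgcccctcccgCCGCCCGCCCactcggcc
The 4 sequences share no motif. Col3a1 held 1 TATA box and no GC box, Col6a1 none of the 3 motifs, Col1a2 2 GC boxes and Col8a2 4 GC boxes. The full RefSeq window of Col1a2 also held a CCAAT box, at -109 from the start site and beyond the printed part. RefSeq windows were matched for 35 of the 44 members (38 windows). Over the full 250 bases a GC box was in 57.9% of member windows and 32.7% of all 32851 windows, a CCAAT box in 34.2 and 33.8%, and a TATA box in 13.2 and 12.4%. These are matches of letters only, and whether any factor binds there was not tested.

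The fibrillar collagen Col3a1 shows the pattern that most abundant members shared. Its level in the untreated pool was 1747 CPM in the library labelled CD8 T, 3813 in CD11c+CD11b+, 5321 in CD11c+CD11b- and 4879 in CD11c-CD11b+ cells. After RT alone the same populations, in this order, had 481.7, 667, 565.2 and 1058 CPM. RT+anti-SIRPa gave 725.1, 1249, 1144 and 2026 CPM. Each population was thus highest untreated, and RT+anti-SIRPa came second in each. RT+anti-PD-1 gave 229.1, 395.3, 245.7 and 851 CPM, and RT+both 342.6, 582.4, 323.9 and 828.2 CPM. These were the 2 lowest pools in each population. Only in CD11c-CD11b+ cells did the triple combination lie below RT+anti-PD-1. The untreated range overlaps that of the irradiated libraries, since 1747 CPM in the untreated CD8 T library is below 2026 CPM in CD11c-CD11b+ cells after RT+anti-SIRPa.

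**Figure D1:**
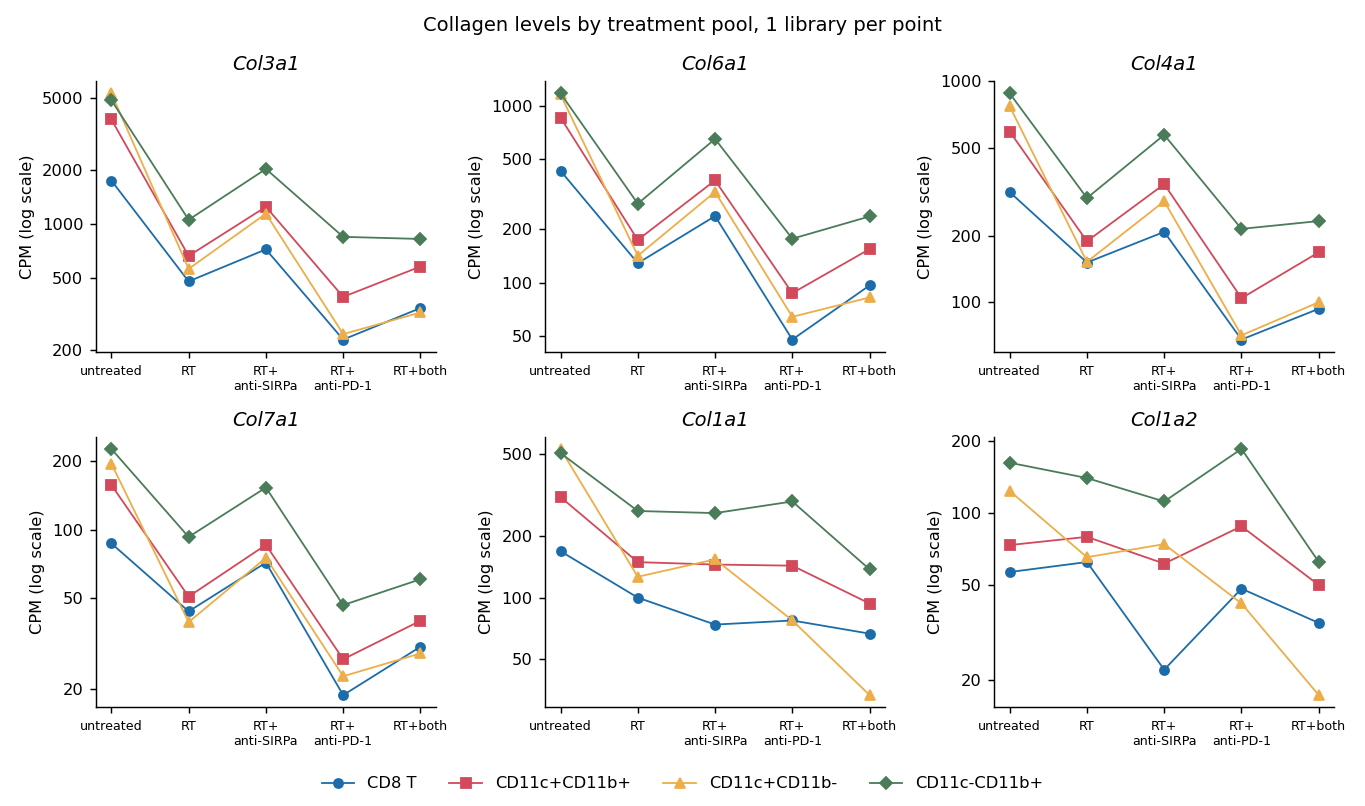
CPM (log axes) of 6 collagen genes by treatment pool, with 1 point per library and lines joining the libraries of 1 sorted population. Col3a1, Col6a1, Col4a1 and Col7a1 are highest untreated and lowest in a pool with anti-PD-1 in each population, while Col1a2 runs from 17.3 to 185.1 CPM with no common order of pools.

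Differences between pools and differences between populations were both called for most tested members. A difference between pools, with the population in the model, passed for 21 of 34 members, against 13.4% of all 21607 genes tested (edgeR's quasi-likelihood F-test, Benjamini-Hochberg adjusted p below 0.05). A difference between populations, with the pool in the model, passed for 24 of 34, against 55.6% of all genes. For 19 members both passed. Only the pool passed for Col4a5 and Col6a4, and only the population for Col1a2, Col8a2, Col17a1, Col19a1 and Col20a1. Col19a1 passed the filter on low counts through CD11c+CD11b- libraries alone, so its population call was set by the filter. Without the library labelled untreated CD8 T these counts were 21 and 25.

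The same comparison can be read from how the variation of log2 CPM divides. In a split of its sum of squares over the 20 libraries, the pool took a median of 56.7% and the population 21.6% for the 34 members, leaving 13.5%. For all genes tested the medians were 16.9% for the pool, 42.6% for the population and 31.2% for the remainder. The pool took more than the population for 25 of 34 members, or 73.5%, against 31.9% of all genes. Col6a2 and Col6a1 had the highest pool shares, 80.9 and 80.8%, with 16.0 and 15.9% for the population. For Col3a1 the pool took 79.7% and for the fibrillar chains Col5a1 and Col5a2 78.0 and 78.1%. The type IV chains Col4a1 and Col4a2 had pool shares of 73.4 and 67.7%. These shares are descriptions without a test. The 4 libraries of a pool share tumours, harvest and any handling of that pool, and what part each had was not tested.

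**Figure D2:**
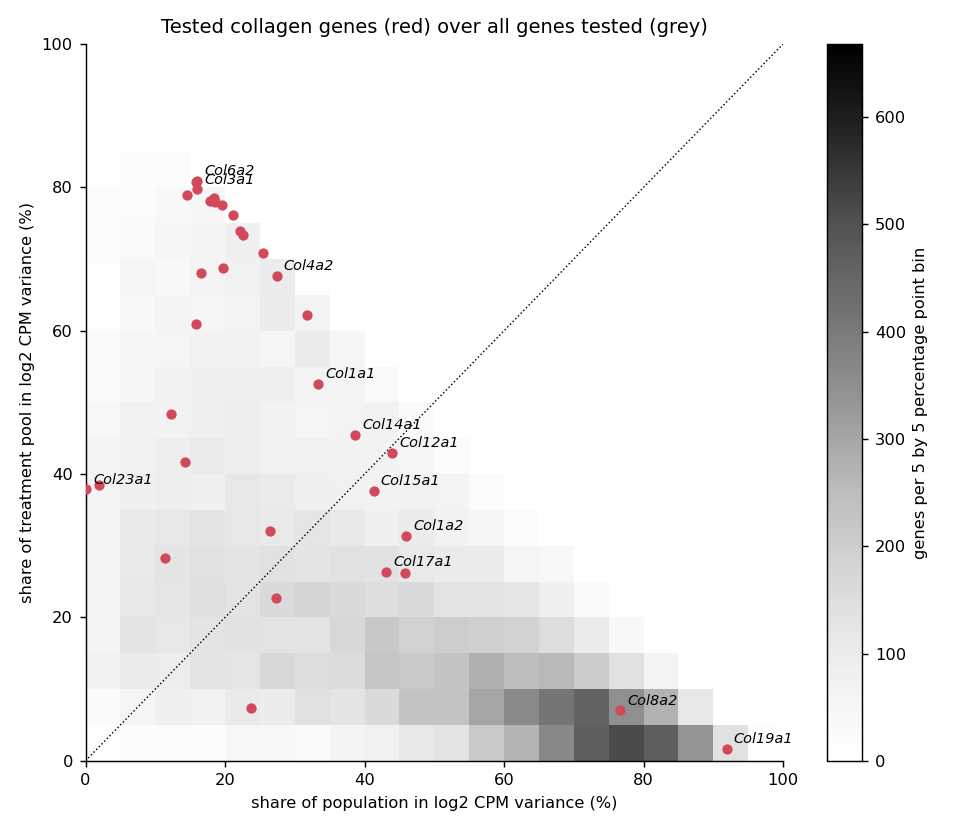
Share of the population (x axis) and of the treatment pool (y axis) in the variation of log2 CPM over 20 libraries, in percent. Red points are the 34 tested collagen genes, grey squares count all genes tested in bins of 5 by 5 percentage points, and the dotted line marks equal shares. Col3a1 and Col6a2 lie far above the line, and Col8a2 and Col19a1 far below it.

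Many members ranked the 5 pools alike in every population. The order untreated, RT+anti-SIRPa, RT, RT+both and RT+anti-PD-1, from highest to lowest, held in all 4 populations for 11 of 34 members. This was so for 1.15% of all genes tested, counting any order. The 11 were the type VI chains Col6a1, Col6a2 and Col6a3, the type IV chains Col4a1 and Col4a2, the type V chains Col5a1, Col5a2 and Col5a3, and Col7a1, Col16a1 and Col18a1. Col7a1 is the anchoring fibril that ties basement membrane to dermis, Col16a1 is a fibril-associated collagen, and Col18a1 is the basement membrane multiplexin whose end fragment is endostatin. The untreated library was the highest in all 4 populations for 18 of 34 members, against 7.7% of all genes. This count and that of the shared order include the library labelled untreated CD8 T, and neither was made without it. Over the 14 members of highest mean CPM, RT+anti-PD-1 was the lowest pool for 12 in CD8 T, 12 in CD11c+CD11b+, 12 in CD11c+CD11b- and 11 in CD11c-CD11b+ cells.

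Col6a1 shows this order by library. Untreated, it stood at 428.6 CPM in the CD8 T library, 856.6 in CD11c+CD11b+, 1157 in CD11c+CD11b- and 1174 in CD11c-CD11b+ cells. RT+anti-SIRPa gave 237.7, 378.3, 325.5 and 648.6 CPM in the same populations, and RT alone gave 128.8, 174.3, 141.9 and 279.4. RT+both gave 96.5, 154.8, 82.5 and 236.7 CPM, and RT+anti-PD-1 gave 47.7, 87.2, 64.1 and 177.1. The steps between neighbouring pools thus went the same way in 4 of 4 populations, although libraries of different pools overlap in level.

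Levels in the irradiated pools were lower than in the untreated pool for 21 of 34 members and higher for none, against 14.8% of all genes lower. Over the 34 members the median difference was -1.67 on the log2 scale, against -0.04 over all genes tested. Among the 14 leading members 13 were lower, all but Col1a2. Col3a1 fell by 2.62 ± 0.17 (log2, SE), which is 6.13-fold (edgeR adjusted p = 1.27e-07). Without the untreated CD8 T library 24 members were lower, and leaving out any 1 irradiated pool or population gave 21 to 24. With 1 untreated pool, the difference between irradiated and untreated tumours cannot be told apart from a difference of that pool.

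By class, 7 of 10 tested fibrillar chains were lower in the irradiated pools: Col1a1, Col3a1, Col5a1, Col5a2, Col5a3, Col11a1 and Col27a1. Col11a1, a chain of type XI collagen known from cartilage and from stroma of carcinomas, fell by 2.87 ± 0.22. Its untreated levels were 7.89, 20.01, 26.6 and 24.0 CPM in CD8 T, CD11c+CD11b+, CD11c+CD11b- and CD11c-CD11b+ libraries, and its irradiated levels 0.809 to 8.92 CPM. Its partner Col11a2 was spread narrowly, at 2.59 to 6.35 CPM over the 20 libraries, with a difference of -0.20 ± 0.16 (edgeR adjusted p = 0.42). Of the 6 type VI chains 4 were lower, with log2 differences of -2.42 ± 0.15 for Col6a1, -2.37 ± 0.14 for Col6a2, -1.70 ± 0.13 for Col6a3 and -3.01 ± 0.40 for Col6a4. Col6a5 and Col6a6, the chains next to Col6a4, were low, at up to 3.31 and 0.815 CPM. Of 4 tested type IV chains 3 were lower, with differences of -1.83 ± 0.14 for Col4a1, -1.65 ± 0.14 for Col4a2 and -2.61 ± 0.34 for the X-linked Col4a5. Both multiplexins (Col15a1 and Col18a1), Col7a1, 3 of 6 tested fibril-associated chains (Col12a1, Col14a1 and Col16a1) and 1 of 3 short-chain collagens (Col8a1) were lower as well. Neither of the tested transmembrane collagens, Col17a1 and Col23a1, was called.

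Whether the drop differed between the populations was tested by an interaction. It passed for 1 of 38 members, Col14a1, against 14.9% of all 23677 genes in that fit. The fit had no pool term, so differences among the irradiated pools stayed in its residual. The pool took a median of 56.7% of the variation for members and 16.9% for all genes. The low count therefore does not show that the drop was even over the populations. Untreated over the mean of the irradiated libraries, the 14 leading members had a median ratio of 2.25 in CD8 T, 2.86 in CD11c+CD11b+, 4.88 in CD11c+CD11b- and 2.63 in CD11c-CD11b+ cells. For Col3a1 these ratios were 3.93, 5.27, 9.34 and 4.1, and its interaction did not pass (edgeR adjusted p = 0.842). The CD8 T ratios rest on the library labelled untreated CD8 T, which had low CD8 T cell and high macrophage markers. They are thus not a measure of irradiation in CD8 T cells alone.

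Within the irradiated pools, those with anti-PD-1 had lower collagen levels. Of 34 members 17 were lower and none higher, against 4.99% of all genes lower, and the members' median was -0.80 (log2) against 0.01 over all genes. They include 12 of the 14 leading members. Col6a2 fell by 1.31 ± 0.14 (edgeR adjusted p = 0.000115), Col18a1 by 1.26 ± 0.11 (adjusted p = 5.33e-05) and Col3a1 by 1.06 ± 0.17, 2.08-fold (adjusted p = 0.000953). The other lower members were Col4a5, Col8a1, Col11a1, Col12a1 and Col27a1. The type I chains did not pass: Col1a1 differed by -0.55 ± 0.22 (adjusted p = 0.194) and Col1a2 by -0.35 ± 0.24 (adjusted p = 0.483). The call rests on particular pools. Without RT+anti-SIRPa, the highest irradiated pool, 0 members passed with 1 pool left on the side without anti-PD-1, and without RT+anti-PD-1 9 passed. A variation of the anti-PD-1 difference between the populations was called for 0 of 33 members tested, against 0.0% of all 22023 genes (edgeR). At an unadjusted p below 0.05 edgeR had 1 member, and DESeq2 called 0. The pool was not a term in that fit, which called 0 genes in all. It therefore does not show that the anti-PD-1 difference was even over the populations.

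Pools with anti-SIRPa were higher than the other irradiated pools for 3 members, Col6a1 by 0.88 ± 0.15 (edgeR adjusted p = 0.0443), Col6a2 by 0.92 ± 0.14 (adjusted p = 0.0323) and Col18a1 by 0.78 ± 0.11 (adjusted p = 0.0296). These are 3 of 13 genes, or 0.0602% of all tested, that were higher, and the members' median was 0.43 (log2). At an unadjusted p below 0.05 there were 18 members. The type I chains lay on the other side of 0, Col1a1 at -0.38 ± 0.22 (adjusted p = 1.0) and Col1a2 at -0.71 ± 0.24 (adjusted p = 0.379). The count went from 3 to 0 without RT+anti-SIRPa, without RT+anti-PD-1, without CD11c-CD11b+ or without CD11c+CD11b+ libraries. It rose to 15 without RT+both, to 12 without the untreated pool, to 11 without RT, to 10 without CD11c+CD11b- and to 9 without the untreated CD8 T library, and DESeq2 called 12.

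**Figure D3:**
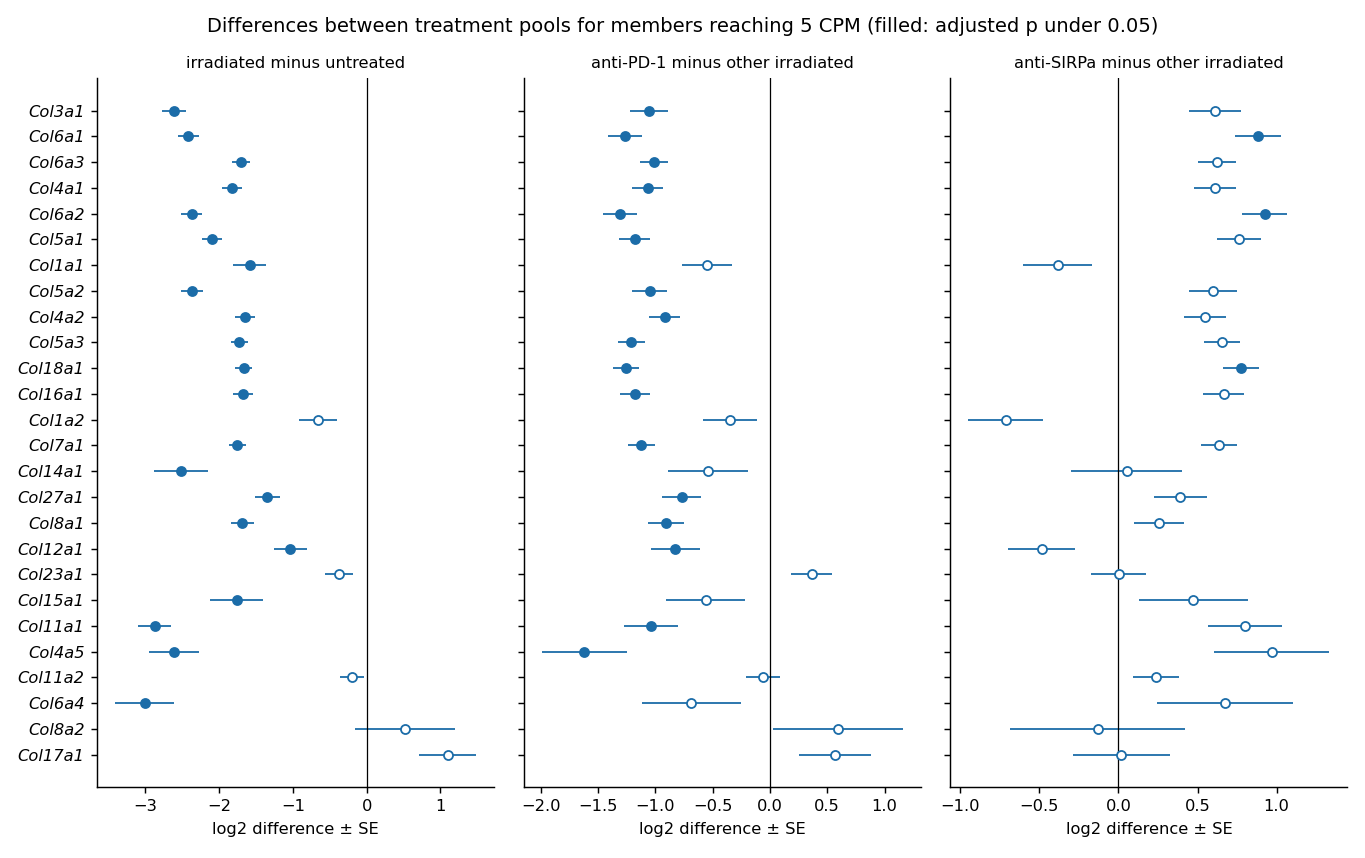
Log2 differences with their SE between treatment pools for the 26 members that reached 5 CPM, from the edgeR fit with population as a term. Filled points passed an adjusted p of 0.05. The 21 filled points of the left panel all lie below 0, as do the 17 of the middle panel, and the right panel has 3 filled points above 0.

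The type I chains differed from the other abundant members in their pool pattern. Col1a1 was still highest in the untreated pool in each population, with 168.3, 309.3, 531.4 and 506.9 CPM in CD8 T, CD11c+CD11b+, CD11c+CD11b- and CD11c-CD11b+ libraries. After RT it had 99.9, 148.9, 126.3 and 264.5 CPM, and after RT+anti-SIRPa 73.8, 144.9, 153.6 and 258.3. RT+anti-PD-1 gave 77.3, 143.1, 77.4 and 294.4 CPM and RT+both 66.7, 93.5, 33.4 and 137.2. The triple combination was therefore the lowest pool of Col1a1 in each population, where Col6a1 was lowest after RT+anti-PD-1. Its pool share was 52.6% and its population share 33.4%.

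Col1a2 went further from the common order. The CD8 T libraries had 56.5 CPM untreated and 62.2, 22.1, 48.1 and 34.6 CPM after RT, RT+anti-SIRPa, RT+anti-PD-1 and RT+both. CD11c+CD11b+ libraries had 73.3, 79.3, 61.3, 87.8 and 49.8 CPM in the 5 pools in the same order, and CD11c-CD11b+ libraries 162, 139.8, 111.5, 185.1 and 62.2. In these 3 populations the untreated library was not the highest. CD11c+CD11b- libraries had 123.5, 65.2, 73.9, 41.7 and 17.3 CPM, with the untreated one highest. Its irradiated pools differed from the untreated pool by -0.66 ± 0.25, and neither this (edgeR adjusted p = 0.0815) nor the pool difference (adjusted p = 0.0955) passed. The population took 45.9% of its variation and the pool 31.4%.

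Set against Col3a1 per kb of transcript, the type I chains varied between pools more than between populations. The ratio of Col1a1 to Col3a1 was 0.0761 to 0.0975 in the 4 untreated libraries and 0.195 to 0.234 after RT. RT+anti-SIRPa gave 0.0955 to 0.126, RT+anti-PD-1 0.295 to 0.34 and RT+both 0.0968 to 0.183. RT+anti-PD-1 and RT alone thus did not overlap each other or any other pool. Col1a2 to Col3a1 ran from 0.02 to 0.0346 untreated to 0.177 to 0.232 after RT+anti-PD-1, an 11.6-fold range over the 20 libraries. The partner chains of type I collagen also varied against each other, with Col1a1 to Col1a2 at 1.43 to 3.87, a 2.7-fold range. The pool means of that ratio were 3.29 untreated and 1.65, 2.27, 1.5 and 1.79 in the irradiated pools, in the order RT, RT+anti-SIRPa, RT+anti-PD-1, RT+both. Other partner chains had narrower ranges: Col6a1 to Col6a2 was 1.23 to 1.51, Col4a1 to Col4a2 1.54 to 2.05 and Col5a1 to Col5a2 0.733 to 1.12. Col4a1 and Col4a2 start head to head and their annotated spans overlap, so without a stated strand setting their reads there cannot be told apart. The share of Col3a1 in all collagen CPM was 37.8 to 43.2% untreated and 26.1 to 31.8% irradiated, and these ranges do not overlap. These ratios were looked at after the levels were seen and carry no test.

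**Figure D4:**
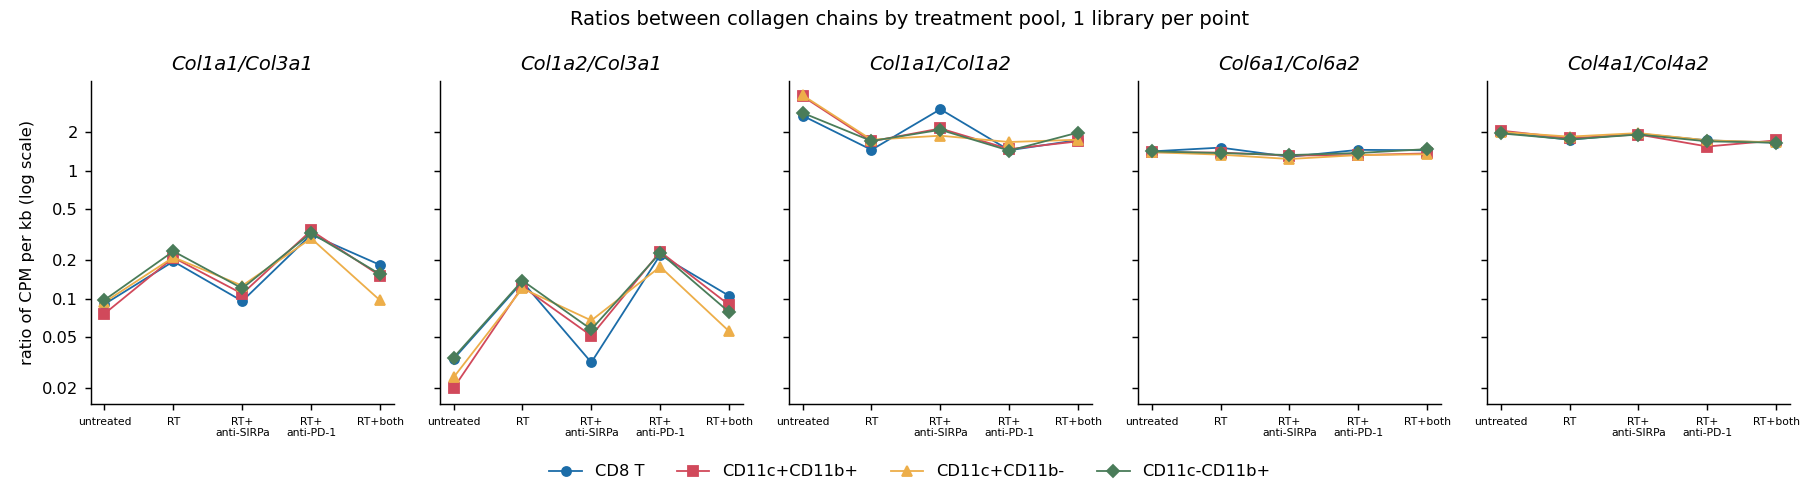
Ratios of CPM per kb of transcript (log axis, the same for all panels) between collagen chains by treatment pool, with 1 point per library and lines joining a population. The 2 ratios to Col3a1 vary between pools with the 4 populations close together. Col1a1 to Col1a2 runs from 1.43 to 3.87 and is highest in the untreated pool, and Col6a1 to Col6a2 and Col4a1 to Col4a2 stay within 1.23 to 1.51 and 1.54 to 2.05.

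The sorted populations differed as well, in a direction shared by most abundant members. Among the 14 leading members CD11c-CD11b+ cells had the highest level for 14 of 14 in each irradiated pool and for 10 of 14 in the untreated pool, where CD11c+CD11b- cells were highest for the other 4. The CD8 T library was the lowest for 14 untreated, 11 after RT, 14 after RT+anti-SIRPa, 13 after RT+anti-PD-1 and 4 after RT+both, where CD11c+CD11b- was the lowest for 10. In the model with the pool, CD8 T libraries were lower than the 3 myeloid populations for 19 of 34 members and higher for none, against 15.5% of all genes lower. The difference was -0.93 ± 0.18 for Col3a1 (edgeR adjusted p = 0.00131) and -0.81 ± 0.12 for Col18a1 (adjusted p = 0.000214). Without the untreated CD8 T library the count was 23, and without CD11c-CD11b+ libraries it was 11. Fewer collagen-producing cells and less collagen RNA per cell cannot be told apart in bulk libraries.

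CD11c+CD11b- libraries were lower than the 2 CD11b+ populations for 18 of 34 members, against 20% of all genes, a share of members above the background. The difference was -0.65 ± 0.15 for Col4a2 (edgeR adjusted p = 0.003) and -0.57 ± 0.19 for Col3a1 (adjusted p = 0.0222). Higher members were 3, Col8a2, Col17a1 and Col19a1, the last set by the filter, against 24.9% of all genes. Without CD11c-CD11b+ libraries 4 members were called in either direction. CD11c-CD11b+ were higher than CD11c+CD11b+ libraries for 13 of 34 members, among them Col6a3 by 0.83 ± 0.16 (adjusted p = 0.00768) and Col12a1 by 1.31 ± 0.27 (adjusted p = 0.0112), against 4.11% of all genes. That count fell to 0 without RT, to 0 without RT+anti-SIRPa, to 1 without RT+anti-PD-1 and to 5 without RT+both. Leaving the pool out of the model left 4 members with a population difference, against 24 with it.

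Several members did not follow the shared pattern. Col14a1, a fibril-associated collagen, stood at 123.2 CPM in the library labelled untreated CD8 T and at 8.02, 8.53, 4.20 and 4.05 CPM in the other CD8 T libraries (RT, RT+anti-SIRPa, RT+anti-PD-1, RT+both). In CD11c+CD11b+ libraries it had 52.3 CPM untreated and 23.1, 48.0, 20.4 and 17.8 after irradiation. In CD11c-CD11b+ libraries it had 45.2, 11.4, 16.2, 17.8 and 10.7 CPM over the 5 pools, and in CD11c+CD11b- libraries 14.8, 4.94, 5.80, 4.38 and 3.10. The untreated CD8 T library was thus the highest of 20, although it was the lowest untreated library for Col3a1. Within the irradiated pools CD11c+CD11b+ cells were the highest of the 4 populations in each pool. Col14a1 was lower in CD11c+CD11b- than in CD11b+ libraries, with a difference of -2.06 ± 0.42 (edgeR adjusted p = 0.00113). Its irradiation difference depended on the population (adjusted p = 0.00903), and without the CD8 T libraries this was 0.974. The macrophage marker sum was also highest in the untreated CD8 T library, at 8935 CPM, and in the irradiated pools highest in CD11c+CD11b+ libraries, at 5423 to 6654 CPM. Within CD11c+CD11b+ libraries that sum was lowest untreated, at 3864 CPM, where Col14a1 was highest. In CD11c+CD11b- libraries both were highest untreated. In CD11c-CD11b+ libraries Col14a1 was highest untreated, and the sum was 2933 CPM untreated and 2036 to 3572 CPM irradiated. The part of macrophages in the Col14a1 level was not tested.

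Col15a1, a multiplexin of basement membranes of vessels and muscle, resembled Col14a1 at a lower level. It stood at 19.8 CPM in the untreated CD8 T library and 1.72, 3.16, 0.847 and 2.15 CPM in the irradiated CD8 T libraries. CD11c+CD11b+ libraries had 12.1, 10.7, 12.1, 6.09 and 8.64 CPM over the 5 pools. CD11c+CD11b- libraries had 6.56, 2.86, 4.62, 0.944 and 2.83, and CD11c-CD11b+ libraries 13.9, 6.54, 6.79, 7.66 and 5.91. CD11c+CD11b+ was the highest population in 3 of 4 irradiated pools. Its pool and population shares were 37.7 and 41.3%, and its interaction missed the threshold (edgeR adjusted p = 0.0725) but passed in DESeq2 (adjusted p = 0.0124).

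Col8a2, a short-chain collagen known from the corneal Descemet membrane, was found mainly in 1 population. Its level in CD11c+CD11b- libraries was 5.64, 6.24, 8.39, 7.08 and 8.50 CPM over the 5 pools. In the 15 other libraries it was at most 0.901 CPM, so the ranges do not overlap. It was higher in CD11c+CD11b- than in the CD11b+ libraries by 4.25 ± 0.57, or 19-fold (edgeR adjusted p = 4.37e-05), with no pool difference called (adjusted p = 0.776). The population took 76.6% of its variation and the pool 7.09%. Its partner Col8a1 followed the common pattern, at 37.4 CPM untreated and 7.95, 13.6, 5.02 and 4.49 CPM irradiated in CD11c+CD11b- cells. Col8a2 reached the count floor of the filter in 5 CD11c+CD11b- libraries and in 8 others, where 3 were needed, so the filter did not set its population difference. The 7 conventional dendritic cell markers summed to 109.3 to 944.2 CPM in CD11c+CD11b- libraries and to 28.9 to 236.2 CPM in the others. These ranges overlap. The 9 endothelial markers summed to 138.8 to 262.2 CPM in CD11c+CD11b- libraries and to 36.8 to 135.3 CPM in the others, without overlap. Which cells carried Col8a2 was not tested.

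The transmembrane collagens had no pool difference called. Col17a1, the collagen of hemidesmosomes in epithelium, was 0.886, 3.16, 1.96, 5.96 and 3.55 CPM over the 5 pools in CD11c+CD11b- libraries and up to 2.25 CPM elsewhere. It was higher there than in the CD11b+ libraries by 1.18 ± 0.33 (edgeR adjusted p = 0.00875). Col23a1 ran from 5.29 to 12.7 CPM with neither factor called (adjusted p = 0.999 for population and 0.427 for pool), and 62.0% of its variation was in the remainder. Col12a1, a fibril-associated collagen of dense connective tissue, was highest in CD11c-CD11b+ libraries, at 41.8, 24.8, 22.8, 24.6 and 11.0 CPM over the 5 pools, against 1.93 to 22.5 CPM in the 15 others. Its pool and population shares were nearly level at 43.0 and 44.0%.

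**Figure D5:**
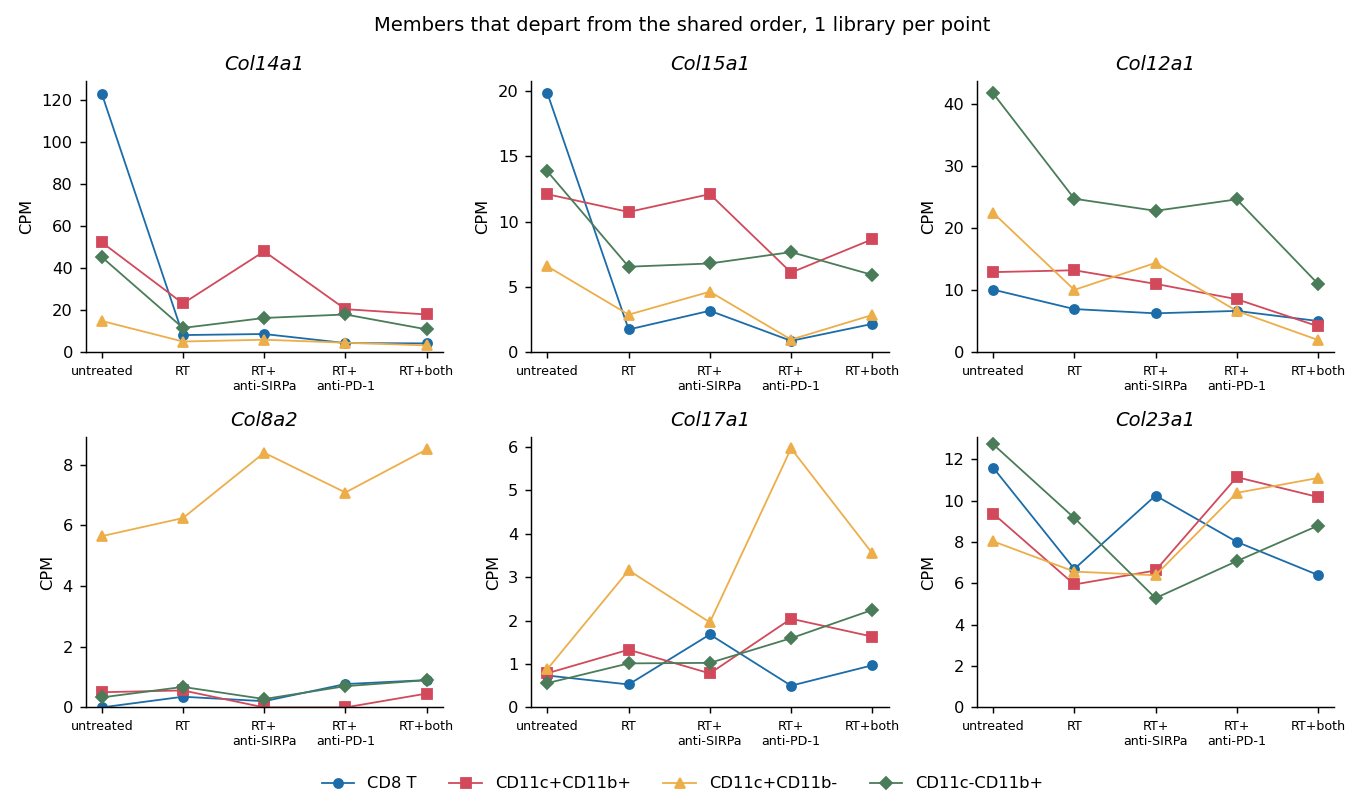
CPM (linear axes from 0) of 6 members that depart from the shared order, by treatment pool, with 1 point per library and lines joining a population. Col14a1 and Col15a1 peak in the library labelled untreated CD8 T at 123.2 and 19.8 CPM, and Col8a2 is above 5 CPM only in CD11c+CD11b- libraries.

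Enzymes that make and crosslink collagen moved with the chains in part. Of the 30 genes listed (prolyl and lysyl hydroxylases, chaperones, procollagen proteases, lysyl oxidases) 29 were tested, and 23 were lower in the irradiated pools (14.8% of all genes) and 12 lower in the pools with anti-PD-1 (4.99% of all genes). P4hb, the disulphide isomerase that is also a subunit of prolyl 4-hydroxylase, differed by -0.67 ± 0.09 (edgeR adjusted p = 4.91e-05) and the catalytic subunit P4ha1 by -0.67 ± 0.16 (adjusted p = 0.00639). Ppib, a cyclophilin of the same complex as the prolyl 3-hydroxylase, did not pass at -0.17 ± 0.08 (adjusted p = 0.181). These are genes that leukocytes also express. The list's median difference was -0.97 against -1.67 for the collagen chains. The list's anti-PD-1 count compares the same pools as that of the chains, and was not made with a pool left out.

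Receptors for collagen lay nearer to the background than the chains in pool and irradiation differences, but not in the population difference. Of 12 listed receptors 10 had a population difference (55.6% of all genes), 3 a pool difference (13.4%), and 4 were lower in the irradiated pools (14.8%). The pool took more variation than the population for 4 of 12, a share near the 31.9% of all genes. Ddr2, the discoidin domain receptor of fibroblasts, was the one of the 4 most abundant with a larger pool share, 62.4 against 33.9%, and fell by 1.32 ± 0.12 (edgeR adjusted p = 1.02e-06). Itgb1, the shared beta subunit of collagen-binding integrins, had 77.8% in the population, Mrc1, a mannose receptor of macrophages, 71.1%, and Lair1, an inhibitory collagen receptor of leukocytes, 58.5%.

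Markers of other cell types are given for the same libraries. All 14 fibroblast markers were tested; 12 were lower in the irradiated pools (14.8% of all genes), 7 were lower with anti-PD-1 (4.99%), and the pool took more variation than the population for 10 (31.9%). Their sum was 607.2 to 1856 CPM untreated, 382.8 to 839.3 after RT, 395.1 to 1097 after RT+anti-SIRPa, 175.6 to 678.5 after RT+anti-PD-1 and 247.5 to 622 after RT+both. Thbs2, Dcn, Pdgfra and Postn were the most abundant, and Pdgfra, the growth factor receptor of fibroblasts, fell by 1.80 ± 0.17 in the irradiated pools (edgeR adjusted p = 2.35e-06). The anti-PD-1 count of the fibroblast markers compares the same pools as that of the collagen genes, and was not made with a pool left out. Pericyte and smooth muscle markers summed to 9.63 to 66.2 CPM with 4 of 8 lower after irradiation. Endothelial markers summed to 36.8 to 262.2 CPM with 2 of 8 tested lower, near the 14.8% of all genes, and their highest values were in CD11c+CD11b- libraries. Carcinoma markers summed to 15.5 to 143.6 CPM, mostly from Cdh1, the epithelial cadherin, at 14.2 to 140.1 CPM. Their sum was 52.6 to 143.6 CPM in the CD11c+ libraries and 15.5 to 44.8 CPM in the CD8 T and CD11c-CD11b+ libraries. Which cells carried Cdh1 was not tested. Of 8 listed 4 were tested, 1 of them (Cdh1) was lower after irradiation, and the simple epithelial keratins Krt8, Krt18 and Krt19 reached at most 0.558 CPM in a library. Skeletal muscle markers summed to at most 12.9 CPM, and keratinocyte markers to at most 1.5 CPM with Krt5 at 0 in all 20. Macrophage markers were lower in the irradiated pools for 4 of 7 (median log2 difference -1.31) and neutrophil markers for 3 of 6 (-0.94), against 14.8% of all genes. Of the others, 2 of 7 CD8 T cell and 1 of 7 conventional dendritic cell markers were higher and 1 of 4 plasmacytoid dendritic cell markers lower. The irradiation difference depended on the population for 7 of 7 macrophage, 7 of 7 CD8 T cell and 0 of 14 fibroblast markers, against 14.9% of all genes (edgeR). Differences among the irradiated pools stayed in the residual of that fit, which had no pool term. Its only untreated CD8 T library had CD8 T cell markers at 175.2 CPM, against 2421 to 3825 CPM in the irradiated CD8 T libraries. The macrophage and CD8 T cell counts, with the 2 CD8 T cell markers called higher, are not given without that library. They therefore do not show how these markers differed with irradiation. A pool difference was called for 3 of 6 neutrophil and 1 of 7 conventional dendritic cell markers, and for 0 of 7 macrophage, 0 of 7 CD8 T cell and 0 of 4 plasmacytoid dendritic cell markers, against 13.4% of all genes. Fibroblast markers were thus lower in the irradiated pools, as the collagen genes were. The macrophage sum was 8935 CPM in the library labelled untreated CD8 T and 565.4 to 1282 CPM in the irradiated CD8 T libraries. In CD11c+CD11b- libraries it was 644.8 CPM against 236.6 to 513.3. It was higher after irradiation in CD11c+CD11b+ libraries, 5423 to 6654 against 3864 CPM, and mixed in CD11c-CD11b+, 2036 to 3572 against 2933. The neutrophil sum in CD11c-CD11b+ libraries, where it was highest, was 739 CPM untreated and 535.4 to 3002 irradiated. The part of these cells in the collagen levels was not tested.

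The genes whose log2 CPM over the 20 libraries followed the summed level of Col1a1, Col1a2 and Col3a1 most closely were looked up among 11687 genes with a mean of 5 CPM or more. Outside the collagen family the first was Dpt (dermatopontin, a matrix protein that binds decorin), with a Pearson r of 0.994. It was followed by Fstl1 (0.989), Ncam1 (0.988), Cilp, Pdgfrl (both 0.985), Dpysl3, Sparc (both 0.984), Abi3bp, Rbms3 and Mmp2 (each 0.983). Sparc is a matrix protein that binds collagen, Mmp2 is gelatinase A, and Dpt and Mmp2 are also among the fibroblast markers. Of these 10, each had a lower fitted level in the irradiated pools, between -1.81 ± 0.14 for Sparc and -2.82 ± 0.23 for Pdgfrl (log2, SE). The summed level that they were chosen to follow was itself highest in the untreated pool in each population. Their direction thus came with the choice and is no further result. Among the 14 leading collagen genes the r of 91 pairs had a median of 0.986 and a lowest value of 0.522. These correlations describe 20 libraries that share pools and populations, and carry no test.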

How the data were processed

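RNA of 20 sorted libraries was analysed from whole-number estimated counts per transcript, as the authors deposited them. Per the submitters' processing notes, FastQC 0.11.8, HISAT2, StringTie, edgeR 3.34.0 and GRCm38 were used; the sources used here do not give the counting method or the strand setting. Of 142699 transcripts, 141469 matched GENCODE M21 and made up 55260 genes. Unmatched transcripts took up to 0.399% of a library's counts.

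Analyses used R 4.3.3 with edgeR 4.0.16 and DESeq2 1.42.0, and Python 3.11.15. Genes were kept by filterByExpr (minimum count 10, minimum total 15), then scaled by TMM. The quasi-likelihood F-test of edgeR was run on population and pool, with 12 residual degrees of freedom. The interaction tests instead used population with irradiation, or population with anti-PD-1 in the irradiated libraries only, without a pool term. P-values were adjusted by Benjamini-Hochberg over all genes tested, with 0.05 as the threshold. SEs are the absolute log2 difference over the square root of F. Pool and population shares are sums of squares of log2 CPM with a prior count of 2. Levels per kb used the count-weighted transcript length. Scripts were tested on simulated data. The populations of a pool come from the same tumours, so the pool is the block of the population comparisons.

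Members were named by rule: the 14 with the highest mean CPM with values, others by name if they reached 5 CPM, and the 4 most abundant genes of each list. Members below 5 CPM that are named were chosen after their values were seen. The members and lists were chosen with earlier results of these data known. Alternatives were RLE scaling, no filter, DESeq2, each term dropped, other prior counts, and each pool, population or the untreated CD8 T library (added after seeing the data) left out.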

Additional observations from a re-analysis of the deposited data

Results flagged for a closer look

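The irradiation difference of Col14a1, a fibril-associated collagen, differed between the 4 populations (edgeR's quasi-likelihood interaction test, adjusted p = 0.00903). Untreated over the mean of the irradiated libraries, its ratio was 19.9 in CD8 T, 1.91 in CD11c+CD11b+, 3.24 in CD11c+CD11b- and 3.22 in CD11c-CD11b+ cells, so the direction was shared and the size was not. The call rests on the CD8 T libraries, since without them the adjusted p was 0.974. Their only untreated library, the one labelled untreated CD8 T, held 123.2 CPM. The interaction cannot be fitted for CD8 T cells without it, so its own part was not separated. Leaving out any 1 of the other populations or irradiated pools gave 0.00171 to 0.0382. That library also had low CD8 T cell markers and the highest macrophage markers of the 20, and their part was not tested.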

How the results depend on the processing

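Dropping the pool from the model, that is the fit with no replicate block, left 4 members with a population difference (24 with it), 0 for CD8 T against myeloid (19), 3 for CD11c+CD11b- (21 in both directions) and 0 for CD11c-CD11b+ against CD11c+CD11b+ (13). Dropping the population left 0 members for anti-PD-1 (17) and 0 for anti-SIRPa (3). For anti-SIRPa, RLE scaling gave 6 and DESeq2 12, and for irradiation by population DESeq2 gave 2 (1). Leaving out 1 pool, 1 population or the untreated CD8 T library gave 11 to 23 for CD8 T, 4 to 23 for CD11c+CD11b-, 0 to 16 for CD11c-CD11b+, 0 to 19 for anti-PD-1, 0 to 15 for anti-SIRPa and 0 to 2 for irradiation by population. Those fits have fewer libraries, and the cause was not tested further. The population difference (17 to 25), pool difference (18 to 21), irradiated pools (21 to 24) and the number of members with a larger pool share (19 to 30) stayed within 1.5 times. Over 93 called single-gene results, 984 alternative fits kept the call, 232 lost it and 0 reversed. Members below 1 CPM rest on few counts, and a difference there was not detectable at this depth.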

Other observations

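Some members at low level were singled out after their values were seen. Col19a1, a fibril-associated collagen, was read at 0.26 to 0.813 CPM in the 5 CD11c+CD11b- libraries and in 1 other library, at 0.0978 CPM, on 64 counts in all. Col20a1 ran from 0.779 to 2.92 CPM and Col10a1, the collagen of hypertrophic cartilage, from 0.609 to 4.75 CPM. Both lie within the span of another annotated gene, so their counts are uncertain. Col4a4, a chain of the kidney basement membrane, had a median of 0.83 CPM, and Col6a5 reached 3.31 CPM only in CD11c-CD11b+ cells after RT+anti-PD-1. Col9a3 ran from 1.16 to 3.77 CPM with 22.7% of its variation in the pool and 27.3% in the population.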
